A study of Mus musculus with 12 samples.

Results

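Iron and heme handling was followed through 8 genes, chosen by name as Hmox1, Blvrb, Fth1, Ftl1, Slc40a1, Slc11a1, Slc11a2 and Tfrc, of 24781 rows in the table of molecules per gene. The cells were tumour-associated macrophages (TAMs), sorted as CD45+CD11b+F4/80high from MC38 tumours, a mouse colon adenocarcinoma line, on day 7 after inoculation. All mice were wild type and carried the tumour in the skin of the flank. The 6 DMSO libraries came from mice injected with the solvent alone and the 6 picrotoxin libraries from mice injected with picrotoxin, an antagonist of the GABAA receptor, from the day before inoculation and then every other day. Each library held 100 sorted cells, and the comparison asks how blocking this receptor in the mouse alters the transcripts of these cells. Picrotoxin was given to the whole animal, so an action on the macrophages themselves and one through other cells cannot be told apart. The labels describe the libraries as independent preparations. The methods of the study give each library a mouse of its own, while the figure legend for this comparison gives fewer mice than libraries. Which libraries, if any, share a mouse is not given. The p-values measure the spread between libraries and are too small if libraries share a mouse.

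Macrophages take up iron as heme from dying cells and as transferrin from plasma. Heme oxygenase (Hmox1) opens the heme ring and releases its iron, biliverdin reductase B (Blvrb) reduces the products of heme breakdown, and ferritin, a shell of heavy (Fth1) and light (Ftl1) chains, stores the iron. Ferroportin (Slc40a1) is the exporter of iron, Slc11a1 (NRAMP1) and Slc11a2 (DMT1) move divalent metals across phagosome and endosome membranes, and the transferrin receptor (Tfrc) brings in transferrin-bound iron. When iron is scarce, iron regulatory proteins bind hairpins called iron-responsive elements: in a 5′ UTR they hold back translation, and in the 3′ UTR of Tfrc they protect the transcript from decay.

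These hairpins are shown as background. The genes were chosen for iron handling, which such hairpins regulate, so the share of genes with a match is no test. The pattern searched was a C, 5 bases, the loop CAGTGN with N not a G, and 5 bases that pair with the first 5, and any annotated transcript was searched. It was found in 4 of the 8 genes and in 0.599% of 55450 annotated genes (332 genes). The pattern allows no extra bulge, so it does not take in the atypical element known in the 3′ UTR of an Slc11a2 isoform. The sequences below are from GENCODE M21 transcripts on GRCm38, 5′ to 3′ on the transcript strand, with the loop in capitals. Fth1 has its match in the 5′ UTR, in exon 1 (chr19:9982732-9982760, plus strand), 109 bases before the start codon. The match of Ftl1 lies in the 5′ UTR in exon 1 (chr7:45459779-45459807, minus strand), 147 bases before the start codon. In Slc40a1 it is again in the 5′ UTR and exon 1 (chr1:45925465-45925493, minus strand), 201 bases before the start codon. Tfrc has 4 matches on the plus strand of chromosome 16, all in the 3′ UTR in exon 19, at chr16:32631219-32631247, chr16:32631598-32631626, chr16:32631663-32631691 and chr16:32631710-32631738.
Fth1: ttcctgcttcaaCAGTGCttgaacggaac
Ftl1: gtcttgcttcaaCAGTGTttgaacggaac
Slc40a1: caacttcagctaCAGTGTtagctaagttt
Tfrc match 1: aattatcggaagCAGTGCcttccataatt
Tfrc match 2: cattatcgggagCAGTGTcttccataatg
Tfrc match 3: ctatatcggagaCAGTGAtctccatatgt
Tfrc match 4: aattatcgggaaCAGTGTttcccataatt

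**Figure D1:**
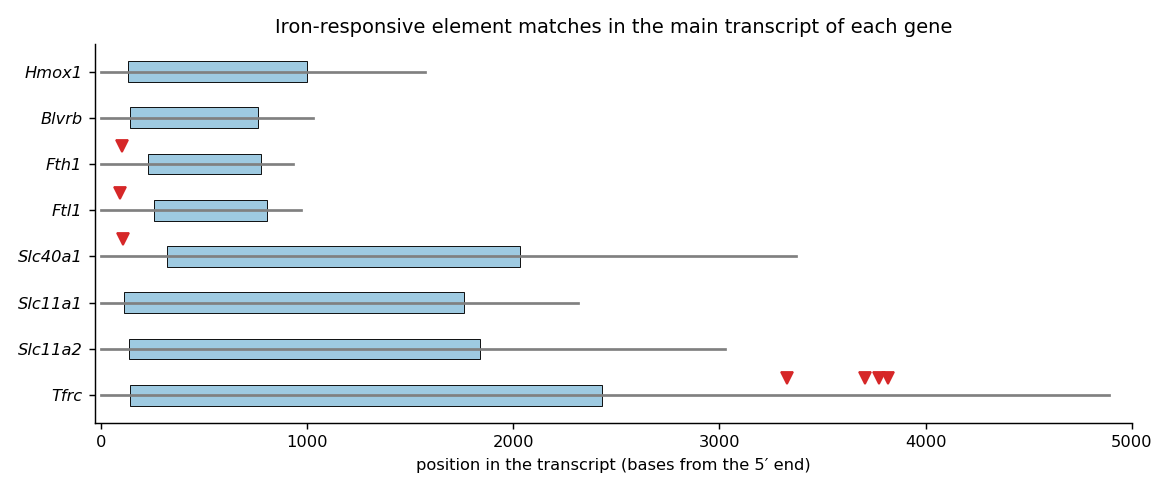
Main transcript of each of the 8 genes, drawn to scale in bases from its 5′ end, with the coding sequence as a box, UTRs as lines and iron-responsive element matches as red triangles. Fth1, Ftl1 and Slc40a1 have 1 match before the coding sequence, Tfrc has 4 after it, and the other 4 genes have no match to the pattern.

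On GRCm38 the other 4 genes lie at chr8:75093621-75100589 (Hmox1, 5 exons), chr7:27447978-27466144 (Blvrb, 5 exons), chr1:74375195-74386062 (Slc11a1, 15 exons) and chr15:100387898-100425072 (Slc11a2, 17 exons, minus strand). The whole genes with matches are Fth1 at chr19:9980598-9985098, Ftl1 at chr7:45457944-45459884, Slc40a1 at chr1:45908068-45926523 and Tfrc at chr16:32608920-32632794. Transcript matches describe letters only, and translation was not measured. In promoter windows (RefSeq, GRCm38.p6), the antioxidant response element TGACNNNGC, searched on both strands, was in 12.4% of 32851 windows and in 0 of the 8 windows held for Blvrb, Fth1, Ftl1, Slc11a1 and Tfrc. No window was held for Hmox1, Slc40a1 and Slc11a2. At that share, 0 of 8 windows says little, and elements outside the windows were not searched.

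Library totals ran from 201697 to 309617 molecules. More genes were detected in DMSO (10400 ± 409, SD, n = 6) than in picrotoxin libraries (9999 ± 139, SD, n = 6; exact permutation test, two-sided, p = 0.0455). The deepest libraries, DMSO 6 and DMSO 5, had the most genes detected (10866 and 10851). The counts of genes were not corrected for depth, and its part in this difference was not tested. The share of the ribosomal RNA precursor Rn45s was higher in picrotoxin (12.95% ± 1.32, SD, n = 6) than in DMSO libraries (10.1% ± 2.42, SD, n = 6; exact permutation p = 0.0368). All 7 macrophage markers (Adgre1, Cd68, Csf1r, Mertk, C1qa, C1qb and C1qc) were found, at 1542 to 2384 molecules per library together. Of the 10 marker lists compared, none differed between groups at an adjusted p under 0.05 (exact permutation, lowest adjusted p = 0.44). The fibroblast and matrix list (9 of 9 genes found) ran from 0.00728% to 0.29% of molecules in DMSO, with DMSO 5 highest and DMSO 3 next at 0.0926%, and from 0.00352% to 0.0253% in picrotoxin libraries. In bulk libraries, fewer cells of a type and less RNA per cell cannot be told apart.

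Across the 8 genes, 7 had a mean above 1 normalised molecule (counts divided by size factors) and were tested, and Slc40a1 was not. None of the 7 had an adjusted p under 0.05 in edgeR, against 0.0522% of all 9580 genes tested (5 genes). At an unadjusted p under 0.05 in edgeR, 1 member was higher with picrotoxin (Fth1; background 3.65% of tested genes higher) and 1 was lower (Blvrb; background 4.11% lower), and 7.77% of tested genes met that threshold in either direction. The call rule of the study, an unadjusted DESeq2 p under 0.05, was met by 1 member, Fth1, against 3.82% of tested genes. By an exact permutation test of log2 CPM (counts per library size after scaling), taken 1 gene at a time, no member had a p under 0.05. The median log2 fold change over the 7 tested members was -0.09, and over all tested genes -0.01.

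**Figure D2:**
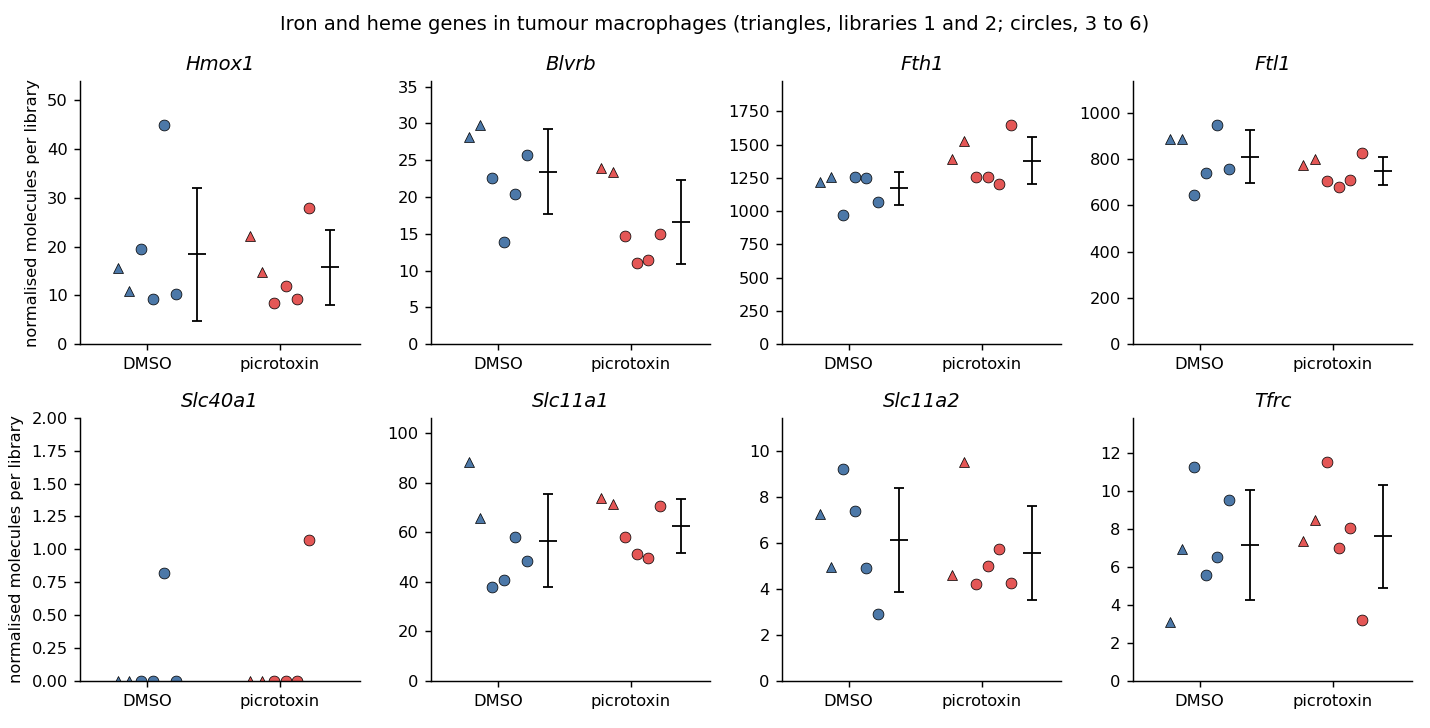
Normalised molecules (counts divided by size factors) of each gene in every library, by group, with the mean and SD (n = 6) at the right of each group except for Slc40a1. Fth1 lies higher and Blvrb lower in most picrotoxin libraries, the groups overlap for every gene, and Slc40a1 has a molecule in 1 library of each group.

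Ferritin, the iron store, had fitted values on different sides of 0 for its heavy and light chain transcripts. Fth1, whose chain oxidises iron as it enters the shell, had a lowest value of 969 normalised molecules, a median of 1235 and a highest value of 1258 in DMSO libraries. In picrotoxin libraries Fth1 ran from 1201, through a median of 1323, to 1648. All 6 picrotoxin libraries were above the DMSO mean, while the ranges overlapped, with DMSO 3 lowest and picrotoxin 6 highest. The DMSO mean of 1170 ± 122 and the picrotoxin mean of 1380 ± 177 (SD, n = 6) gave a log2 fold change of 0.25 (SE 0.088, 95% interval 0.07 to 0.43; edgeR p = 0.00778, adjusted p = 0.408; DESeq2 p = 0.00996; exact permutation p = 0.0628). The difference passed neither the adjustment over all genes nor the exact test. Leaving out any single library kept the unadjusted edgeR value between 0.00363 and 0.0455, the last without picrotoxin 6.

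Ftl1, the light chain that helps the shell take up its mineral core, pointed the other way. Its values in DMSO libraries were 646 at the lowest, 820 at the median and 947 at the highest. Picrotoxin libraries ran from 679 through 741 to 826 normalised molecules of Ftl1, inside the DMSO range. The DMSO mean of 810 ± 114 and the picrotoxin mean of 749 ± 59.6 (SD, n = 6) gave a log2 fold change of -0.10 (SE 0.090, 95% interval -0.28 to 0.08; edgeR adjusted p = 0.855; exact permutation p = 0.305). The Ftl1 count is uncertain because stretches of at least 100 bases with at least 95% identity are shared with 13 other annotated genes, among them Ftl1-ps1, which matches it at 99.56% over 910 bases. How reads shared by copies were counted is not given in the sources used here, and no other transcript shared such a stretch with Fth1.

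Set against each other within a library, where the scaling between libraries drops out, the 2 chains gave a ratio that was higher in picrotoxin libraries. Fth1 molecules per Ftl1 molecule were 1.38, 1.42, 1.499, 1.70, 1.32 and 1.41 in DMSO libraries 1 to 6. In picrotoxin libraries 1 to 6 the ratio was 1.79, 1.91, 1.78, 1.85, 1.69 and 1.99. Only DMSO 4, at 1.70, reached into the picrotoxin range, just above picrotoxin 5. The mean ratio of 1.46 ± 0.13 in DMSO libraries and of 1.84 ± 0.11 in picrotoxin libraries (SD, n = 6) gave a log2 difference of 0.34 (1.26-fold; exact permutation test, two-sided, p = 0.00433, smallest possible p = 0.00216).

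The ferritin ratio was formed after the values had been seen, and over the 21 ratios among the 7 tested members its adjusted p is 0.0682 (Benjamini-Hochberg on exact permutation p-values). Among these 21 ratios, 3 had an unadjusted exact permutation p under 0.05 and 0 an adjusted one. The other two were Blvrb to Slc11a1 (log2 difference -0.71, exact permutation p = 0.00649, adjusted p = 0.0682) and Blvrb to Fth1 (-0.76, exact permutation p = 0.0216, adjusted p = 0.152). In libraries numbered 1 and 2 the ferritin ratio averaged 1.40 in DMSO and 1.85 in picrotoxin, and in those numbered 3 to 6 it averaged 1.48 and 1.83 (log2 difference in 3 to 6 of 0.31, exact permutation p = 0.0571). The Rn45s share moved in the same direction, from 7.37% to 13.7% in DMSO and from 11.7% to 15.2% in picrotoxin libraries, and its part in the ratio was not tested. Both chains together made 0.861% ± 0.103 of all molecules with DMSO and 0.899% ± 0.101 with picrotoxin (SD, n = 6), with ranges that overlapped.

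**Figure D3:**
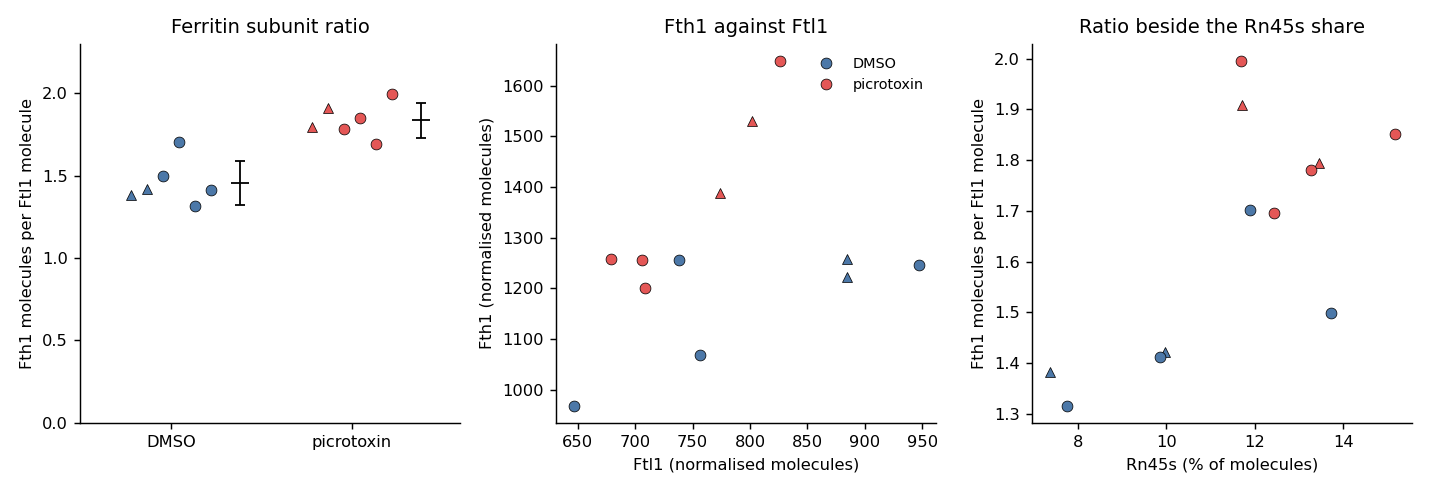
Left, Fth1 molecules per Ftl1 molecule in each library with the mean and SD (n = 6); middle, normalised Fth1 against normalised Ftl1; right, the ratio against the Rn45s share in percent of molecules. Triangles are libraries 1 and 2 and circles 3 to 6. Picrotoxin libraries sit at 1.69 to 1.99 and DMSO libraries at 1.32 to 1.70, and most picrotoxin libraries have both a higher ratio and a higher Rn45s share.

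Heme breakdown gave a lower fitted value for Blvrb and no direction for Hmox1. Blvrb ran from 13.9 through a median of 24.1 to 29.8 normalised molecules in DMSO libraries. In picrotoxin libraries Blvrb ran from 11.04 through 14.9 to 24.0. Of the picrotoxin libraries 5 of 6 were below the DMSO mean, and the ranges overlapped. The means of 23.4 ± 5.78 and 16.6 ± 5.71 (SD, n = 6) differed by -0.46 on the log2 scale (SE 0.22, 95% interval -0.90 to -0.02; edgeR p = 0.0397, adjusted p = 0.621; DESeq2 p = 0.0688; exact permutation p = 0.0714).

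Libraries numbered 1 and 2 held more Blvrb than those numbered 3 to 6 in both groups, at 28.9 against 20.6 in DMSO and 23.7 against 13.1 in picrotoxin libraries. The labels attach no meaning to these numbers. In libraries 3 to 6 alone the log2 fold change of Blvrb was -0.65 (edgeR adjusted p = 0.383). The unadjusted edgeR p stayed under 0.05 in 5 of the 12 fits that left out 1 library and reached 0.108 without picrotoxin 4.

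Hmox1, the inducible heme oxygenase, varied more within groups than between them. In DMSO libraries Hmox1 ran from 9.28 through a median of 13.3 to 44.99, the last in DMSO 5. In picrotoxin libraries it ran from 8.41 through 13.5 to 27.9, the last in picrotoxin 6. The medians lie close together, the ranges overlap, and DMSO 5 lies above every other library. Means were 18.4 ± 13.6 and 15.7 ± 7.73 (SD, n = 6), a log2 fold change of -0.22 (SE 0.32, 95% interval -0.87 to 0.43; edgeR adjusted p = 0.927; exact permutation p = 0.777). The interval takes in both a lower and a higher level.

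The sign for Hmox1 rests on DMSO 5. Without it the DMSO mean was 13.1 and the log2 fold change 0.31 (edgeR adjusted p = 0.906). DMSO 5 also held the highest fibroblast and matrix share, 0.29% of molecules. With a score of that list as a covariate the log2 fold change of Hmox1 was 0.48 (edgeR adjusted p = 0.919), and it was 0.48 as well without DMSO 3 and DMSO 5 (adjusted p = 0.923). Picrotoxin 6, the next highest library for Hmox1, was not high in that list.

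**Figure D4:**
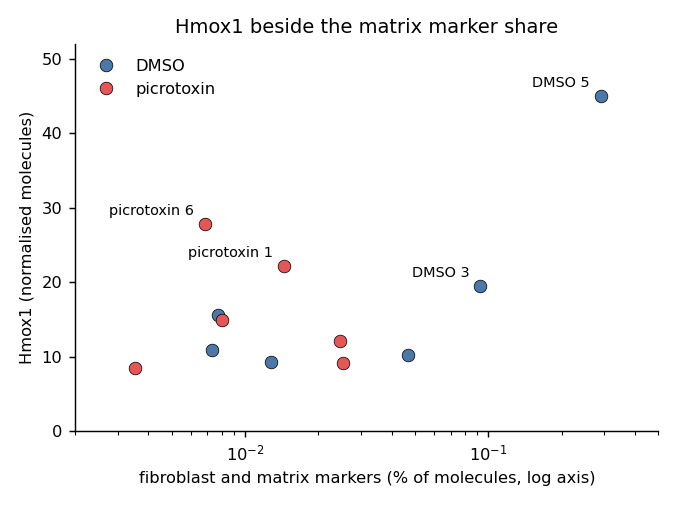
Normalised Hmox1 molecules against the share of molecules on 9 fibroblast and matrix markers (percent, log axis), 1 point per library. DMSO 5 is highest on both axes, at 44.99 molecules and 0.29%, while picrotoxin 6 has 27.9 molecules at a low share.

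Ferroportin (Slc40a1) was all but undetected. Of 2888365 molecules in the 12 libraries, 2 were from Slc40a1, 1 in DMSO 5 and 1 in picrotoxin 6, a share of 6.92e-05% (95% Wilson interval 1.90e-05% to 0.000252%). In the 10 libraries at 0 the count allows a share of up to 0.00149% in the smallest library (3 molecules). The interval and this limit allow for counting error alone. A difference between groups was not detectable at this depth. Markers of iron-recycling tissue macrophages were scarce in the same libraries: the 6 listed genes gave 0 to 3 molecules per library, with Vsig4, Clec4f and Spic at 0 throughout. Red cell genes gave 0 to 2 molecules per library, and Hba-a1, Hbb-b2, Hbb-bt, Alas2, Slc4a1 and Epb42 were among those at 0.

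Metal transporters and the transferrin receptor had no adjusted p under 0.05. Slc11a1, the gene of a phagosomal metal transporter, ran from 37.9 through a median of 53.2 to 88.4 normalised molecules in DMSO libraries. In picrotoxin libraries it ran from 49.5 through 64.3 to 73.7. Only its transcript was measured, and whether the protein transports metal in mice of this strain was not tested. The picrotoxin values all lie within the DMSO range, whose highest library is DMSO 1. Means were 56.5 ± 18.8 and 62.3 ± 10.9 (SD, n = 6), a log2 fold change of 0.16 (SE 0.17, 95% interval -0.17 to 0.50; edgeR adjusted p = 0.877; exact permutation p = 0.416). Without DMSO 1 it was 0.33, with an unadjusted edgeR value of 0.0408 (adjusted p = 0.586).

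Slc11a2, the endosomal and plasma membrane transporter, ran from 2.93 through 6.12 to 9.22 in DMSO and from 4.21 through 4.81 to 9.56 in picrotoxin libraries. Only picrotoxin 2 stood apart from its group, and the ranges overlapped. Its log2 fold change was -0.09 (SE 0.34, 95% interval -0.78 to 0.61; edgeR adjusted p = 0.982; exact permutation p = 0.693). Slc11a2 overlaps 1 gene on the other strand, and whether the counting used strand is not given in the sources used here.

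Tfrc ran from 3.12 through 6.75 to 11.3 normalised molecules in DMSO and from 3.21 through 7.71 to 11.6 in picrotoxin libraries. The groups covered the same range. The log2 fold change was 0.08 (SE 0.31, 95% interval -0.55 to 0.72; edgeR adjusted p = 0.98; exact permutation p = 0.775). Within groups the libraries varied about as counting noise alone would make them for Tfrc and Slc11a2, with a chi-square per degree of freedom of 1.04 and 0.85. It was 17.4 for Fth1, 10.8 for Ftl1, 7.69 for Hmox1, 4.05 for Slc11a1 and 1.72 for Blvrb. This measure rises with the count at the same relative spread, so it does not rank the genes by spread. In DMSO libraries the SD was 122 on a mean of 1170 for Fth1 and 2.89 on a mean of 7.16 for Tfrc. At counts as low as those of Tfrc and Slc11a2, counting noise can hide a spread between libraries.

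How members varied with each other over the 12 libraries was asked of the 21 pairs of tested members, on log2 CPM. No pair had an adjusted permutation p under 0.05, by Pearson's r or Spearman's rho. For Fth1 and Ftl1, r was 0.42 (permutation p = 0.17, adjusted p = 0.411) and rho 0.45 (permutation p = 0.147, adjusted p = 0.349), and r was 0.08 without picrotoxin 6 and DMSO 3. With group means removed, r between the ferritin chains was 0.81 (permutation p = 0.002, adjusted p = 0.021), so within a group libraries with more Fth1 had more Ftl1. On this scale libraries were shuffled across both groups after the means were removed, so the p-values may be too small. Ftl1 and Slc11a1 were the other pair past the threshold on that scale (r = 0.83, permutation p = 0.00129, adjusted p = 0.021). In libraries 3 to 6 alone, also with group means removed, r was 0.77 for Fth1 and Ftl1 (permutation adjusted p = 0.155) and 0.92 for Ftl1 and Slc11a1 (permutation adjusted p = 0.0184). Fth1 and Tfrc were the other pair past the threshold in that subset (r = -0.91, permutation adjusted p = 0.0184), with r = -0.70 over all 12 libraries with group means removed (permutation adjusted p = 0.0742). Before group means were removed, r for Fth1 and Tfrc was -0.51, and it was 0.0086 without picrotoxin 6 and DMSO 3. Tfrc held few molecules and varied within groups about as counting noise would make it (chi-square per degree of freedom 1.04).

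Of 3740 other genes with a mean above 10, those most like Hmox1 over the 12 libraries were Srprb (r = 0.86), Srp72 (0.83), Rpl31 (0.80), Ndufa3 (0.73) and Ufsp2 (0.73). Without DMSO 5, r with Hmox1 was 0.86, 0.63, 0.68, 0.71 and 0.82 for these genes, in the same order. The genes most like Tfrc were Top2b (r = 0.83), Zc3h13 (0.78), Scamp4 (0.78), Pbrm1 (0.77) and Eif1ax (0.77), among 3741. These are the highest values of many and carry no test, and for Slc40a1 none could be computed.

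A wider list of iron and heme genes, 52 in all with 39 tested, had 0 genes with an adjusted p under 0.05 in edgeR. At an unadjusted p under 0.05 edgeR gave 3 higher (Flvcr1, Fbxl5 and Nfe2l2) and 1 lower (Alad), against 3.65% and 4.11% of all tested genes. DESeq2 gave Alad and Fbxl5, 2 genes against 3.82% of all tested genes. The median log2 fold change was 0.03.

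**Figure D5:**
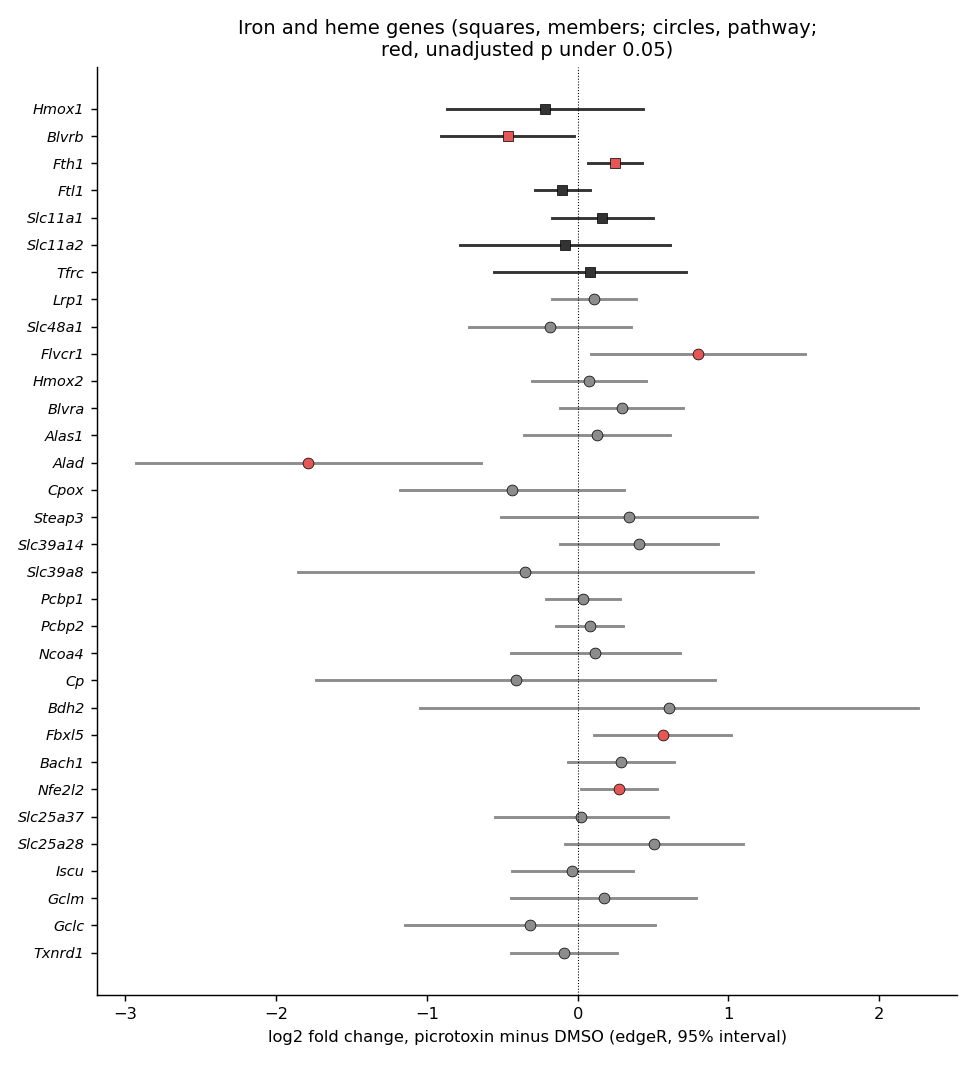
Log2 fold change of picrotoxin minus DMSO with its 95% interval (edgeR) for the 7 tested members (squares) and 25 genes of the wider list (circles), red where the unadjusted p is under 0.05. Alad has the lowest value at -1.79, Fth1 a narrow interval above 0, and most intervals include 0.

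In heme synthesis, 7 of 8 genes were tested. Alad, the second enzyme of the route, ran from 0 through 5.08 to 6.59 normalised molecules in DMSO and from 0.922 through 1.07 to 2.10 in picrotoxin libraries. All 6 picrotoxin libraries were below the DMSO mean, and the ranges overlapped through DMSO 4, which had no molecule. The log2 fold change of Alad was -1.79 (SE 0.56, 95% interval -2.93 to -0.64; edgeR p = 0.00317, adjusted p = 0.312; exact permutation p = 0.0238), on 30 molecules in DMSO and 7 in picrotoxin libraries. Alas1, the rate-limiting enzyme, had a value of 0.13 (adjusted p = 0.951) and Cpox, a later enzyme, of -0.44 (adjusted p = 0.839).

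Among genes of heme uptake and transport, 3 of 5 were tested. Flvcr1, a carrier of the FLVCR family, ran from 0.928 through 5.54 to 6.59 in DMSO and from 3.69 through 8.93 to 10.6 in picrotoxin libraries, which overlapped. Its log2 fold change was 0.80 (SE 0.35; edgeR p = 0.0289, adjusted p = 0.578; exact permutation p = 0.0476), and the unadjusted p reached 0.087 without DMSO 4. Lrp1, the receptor for heme bound to hemopexin, had a value of 0.11 and Slc48a1, which carries heme out of the phagolysosome, of -0.18, with adjusted p-values of 0.92 and 0.927. Cd163, the hemoglobin-haptoglobin receptor, gave 2 molecules in all, both in 1 DMSO library. Hmox2, the constitutive heme oxygenase, and Blvra, the main biliverdin reductase, had log2 fold changes of 0.07 (adjusted p = 0.962) and 0.29 (adjusted p = 0.784).

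In iron and heme sensing, 7 of 8 genes were tested. Fbxl5, the iron-sensing subunit that leads iron regulatory proteins to decay, ran from 9.22 through 12.6 to 18.7 in DMSO and from 12.6 through 17.1 to 27.6 in picrotoxin libraries, with overlap. The log2 fold change of Fbxl5 was 0.56 (SE 0.22; edgeR p = 0.0168, adjusted p = 0.501; DESeq2 p = 0.0499; exact permutation p = 0.0519). Nfe2l2, which encodes the redox regulator NRF2, ran from 54.6 through 57.3 to 81.6 in DMSO and from 66.7 through 75.0 to 81.8 in picrotoxin libraries, with a log2 fold change of 0.27 (SE 0.12; edgeR p = 0.0336, adjusted p = 0.615; exact permutation p = 0.0346). In libraries 3 to 6 alone the value of Nfe2l2 was 0.15 (edgeR adjusted p = 0.832). Bach1, the heme-binding repressor of Hmox1, had a value of 0.29 (adjusted p = 0.753).

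Other roles held no gene with an unadjusted p under 0.05. The NRF2 targets outside iron (5 of 6 tested) had 2 fitted higher and 3 lower, among them Gclm at 0.17, Gclc at -0.32 and Txnrd1 at -0.09. Iron delivery to and from ferritin was flat in fitted value, with the iron chaperones Pcbp1 at 0.03 and Pcbp2 at 0.08 and the ferritin autophagy receptor Ncoa4 at 0.12. Slc39a14, a non-transferrin iron importer, had a value of 0.41 (edgeR adjusted p = 0.756), higher than the DMSO mean in 6 of 6 picrotoxin libraries. Such counts also occurred in the other direction, as Cpox of heme synthesis was lower than the DMSO mean in 6 of 6. Further log2 fold changes were 0.34 for the ferrireductase Steap3, -0.35 for the importer Slc39a8, -0.41 for the ferroxidase Cp and 0.61 for Bdh2. The mitochondrial iron importers Slc25a37 and Slc25a28 had values of 0.02 and 0.50, and the iron-sulfur scaffold Iscu of -0.03. Hepcidin (Hamp), lipocalin 2 (Lcn2) and hephaestin (Heph) had 0 molecules in every library.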

How the data were processed

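TAMs in 6 DMSO and 6 picrotoxin libraries were compared, grouped by the titles in the labels. The authors deposited raw counts of barcoded molecules for each gene symbol. According to the labels, cDNA was primed with oligo-dT carrying a molecular barcode after fragmentation by heat, and the submitters' processing notes name STAR and mm10. Molecular barcodes remove PCR copies. Fragmented, oligo-dT primed RNA favours 3′ ends. Ratios between genes were therefore compared only between groups, and their size does not give the relative level of the genes. Handling of multi-mapping reads and strand is not given in the sources used here. Replicate libraries differed by more than sampling noise (chi-square per degree of freedom 1.23 to 3.15 over 30 pairs).

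Genes with a mean above 1 normalised molecule (9580) were tested with the quasi-likelihood test of edgeR 4.0.16 (TMM, Benjamini-Hochberg over all of them), and with DESeq2 1.42.0 for the call rule of the study, both in R 4.3.3. Normalised values are counts divided by DESeq2 size factors, and log2 CPM used a prior count of 2. The fits were tested on simulated data. Single values were compared by exact two-sided permutation over 924 assignments, and correlations with 100000 resamples (scipy 1.17.1). The median log2 fold change of all genes moved by less than 0.1 under every scaling tried. Shared stretches were found with blastn 2.17.0 in GENCODE M21. The iron-responsive element search left out loops ending in G. Named genes were the members, pathway genes with an unadjusted p under 0.05, the 3 of highest level per role, and the 5 most like Hmox1, Slc40a1 and Tfrc. Of these, 1 gene was tested and counted but is not reported here. The members and lists were chosen with earlier results of these data known. Alternatives covered normalisation, filters, tools, libraries left out, library numbers and the matrix score.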

Additional observations from a re-analysis of the deposited data

Results flagged for a closer look

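In groups of 6 libraries, 50 sets of values were checked for a highest or lowest library that stood apart from its group by Dixon's test at the 95% level. Of these, 10 stood apart. Chance alone flags about 1 in 20 such sets, but in 5 of the 10 every other library was at 0, where any molecule is enough and that rate does not apply. Hmox1 in DMSO 5 was at 44.99 normalised molecules, against 9.28 to 19.5 in the other DMSO libraries. The same library had the fibroblast and matrix share that stood apart, 0.29% of molecules against at most 0.0926%. Slc11a2 in picrotoxin 2 was at 9.56 against at most 5.75, and Alad in picrotoxin 3 at 2.10 against values of at most 1.150.

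The remaining sets rest on few molecules. Slc40a1 was at 0.818 normalised molecules in DMSO 5 and at 1.07 in picrotoxin 6, with 0 in every other library of the group. Markers of iron-recycling tissue macrophages gave 0.000969% of the library DMSO 6 and 0.000417% of picrotoxin 4, with 0 elsewhere. T and NK cell markers took 0.000455% in DMSO 1, and epithelial tumour cell markers took 0.00637% in DMSO 1 against at most 0.00441% in the other DMSO libraries.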

How the results depend on the processing

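No member and no gene of the wider list reached an adjusted p under 0.05 in any of the 24 alternatives across genes, where the count over all genes ranged from 0 to 81. Fth1 kept its direction and an unadjusted p under 0.05 in these 24 (log2 fold change 0.19 to 0.29), and Blvrb kept its direction in 24 and that threshold in 16. By the exact permutation test, added after seeing the data, neither was under 0.05 (p = 0.0628 for Fth1 and 0.0714 for Blvrb). The call rule of the study gave 2 members in place of 1 with edgeR, with library numbers 1 and 2 against 3 to 6 as a term, and without DMSO 4, picrotoxin 1 or picrotoxin 2, a range of 1 to 2 over single libraries left out. The ferritin ratio, an alternative set chosen after seeing the data, had a log2 difference of 0.31 to 0.39 over single libraries left out, and of 0.31 (exact permutation p = 0.0571) in replicates 3 to 6 alone. Correlated pairs numbered 0, and 2 with group means removed, and 2, of which 1 is shared, with group means removed in replicates 3 to 6 alone (chosen after seeing the data). The main fits did not take replicate numbers as pairs. Same-numbered libraries correlated at -0.0048 to 0.126, with 1 of 6 above 0.1, and libraries of other numbers at a mean of -0.011. These values are low and do not settle whether the numbers carry a pairing. With the replicate block the log2 fold change of Fth1 was 0.25 (edgeR adjusted p = 0.265), the ferritin ratio gave p = 0.0312 (exact sign flips), the smallest that 6 pairs allow, and calls over all genes numbered 43 in place of 5.

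Directions turned for fold changes that no test had called, and the cause was not tested. With the matrix score as a covariate, Hmox1 was at 0.48, Slc39a8 at 0.012, Gclc at 0.12 and Txnrd1 at 0.052. Without DMSO 3 and 5 both, Hmox1 was at 0.48, Slc11a2 at 0.018, Slc25a37 at -0.0086, Gclc at 0.049 and Txnrd1 at 0.072. In replicates 3 to 6 alone, Tfrc was at -0.11, Slc39a8 at 0.056 and Iscu at 0.13. With library totals, Pcbp1 was at -0.019 and Slc25a37 at -0.032, and with a mean above 10 Slc25a37 was at -0.0036. Over single libraries left out, Hmox1 ranged from -0.45 to 0.31, Slc11a2 from -0.31 to 0.056, Tfrc from -0.069 to 0.23, Hmox2 from -0.031 to 0.17, Pcbp1 from -0.018 to 0.092, Slc25a37 from -0.13 to 0.19, Iscu from -0.12 to 0.036 and Gclm from -0.0072 to 0.31. The macrophage share difference ranged from -0.0155 to 0.0461 percentage points and that of iron-recycling markers from -0.000161 to 6.95e-05. Depth limits Slc40a1, and wide intervals limit Slc11a2 and Tfrc.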
